A study of Mus musculus with 65 samples.

Results

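The 66 protein-coding histone genes described here are the replication-dependent ones: the genes of the mouse histone clusters, named H2ac, H2bc, H3c or H4c with a number, and the linker histone genes H1f1 to H1f5. They were chosen by name and coding status alone, with H4f16, H2bu2, H2aw and H4bc24 (a gene that codes for H2B) brought in through their older cluster names, and no measured value was used. They comprised 5 H1, 18 H2A, 18 H2B, 12 H3 and 13 H4 genes. All 66 were among the 18217 protein-coding genes that could be paired with a transcription start site (TSS). The window of 1 kb (mm10) nearest the centre of each TSS was read, which gave 61 distinct windows of the 30782 windows at all TSSs, because 5 windows held a pair of histone genes. Another 8 windows overlapped the next histone window, so the windows are not independent of each other.

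The study followed accessible chromatin after DNA replication in E14TG2a mouse embryonic stem (ES) cells, a line of the 129/Ola strain grown on gelatin with serum and LIF. In repli-ATAC-seq, DNA being copied takes up the thymidine analogue EdU, an enzyme (Tn5) cuts and tags open chromatin, and the EdU-carrying fragments are then pulled down through biotin, which gives the EdU-bound libraries. The rest of the fragments give the unbound libraries of the same cells. Cells were labelled with 20 µM EdU for 10 min and taken at once (nascent chromatin) or after 2 h in medium with 10 µM thymidine (2 h chromatin). Before labelling, they had spent 2 h in DMSO, the solvent, or in DRB or triptolide, so the DMSO groups are the controls and all inhibitor libraries share the EdU pulse. DRB is known as an inhibitor of CDK9, the kinase that releases paused RNA polymerase II, and triptolide as a drug that blocks XPB, the part of TFIIH that opens promoter DNA at initiation. The sources used here give neither doses nor whether the drugs were kept on after the pulse. Each of the 12 inhibitor groups had 3 libraries, and a further set of 2 nascent and 2 libraries at 2 h, without inhibitors, carried EdU-labelled Drosophila S2 cells as a spike-in. Peak lists were used for nascent chromatin, 30 min, 1 h and 2 h after labelling, for steady-state ATAC-seq and for S5P, a ChIP of RNA polymerase II with phosphate on serine 5, the form found at promoters. The labels do not say whether replicates were separate cultures, and p-values therefore reflect only how far these libraries spread, which may be technical.

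Replication-dependent histone genes are transcribed during S phase, when new nucleosomes are built behind the replication fork. They typically lack introns, and their mRNAs end in a stem-loop bound by SLBP in place of a poly(A) tail. The genes are transcribed in a nuclear structure, the histone locus body, that is organised by NPAT and switched on by cyclin E with CDK2. H2A with H2B and H3 with H4 form the core of the nucleosome, and H1 binds the linker DNA between cores. Passage of the fork strips nucleosomes and factors from the promoter, which is then rebuilt on both daughter strands.

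The genes lie in 5 places in the genome. The first chromosome 13 cluster (mm10 positions 21715501 to 22043500) held 23 genes in 20 windows over 328 kb. The second, at 23530501 to 23935000 on the same chromosome, held 30 genes in 29 windows over 404.5 kb. The chromosome 3 cluster, between 96219501 and 96270000, held 10 genes in 9 windows, H2aw and H2bu2 stood on chromosome 11 (58948501 to 58955000), and H4f16 stood alone on chromosome 6 (136804001 to 136805000). In all, 49 windows were on chromosome 13. All were scored at the annotated start, so a window covers promoter and, since most of these genes are short, often much of the coding exon. Some annotated spans were long, such as that of H2bc6 (23583670 to 23621124).

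Sequences are printed for the promoters on which the results turn: the H2A, H1 and H3 windows with the largest change over 2 h in DMSO, H4c9, where that change differed most between triptolide and DMSO, the pair of testis histone genes, and a gene copy whose window held no reads. RefSeq promoters (GRCm38.p6, the assembly of mm10) were found for 61 of the 66 genes. Capitals mark TATAAA (the TATA box), CCAAT, ATTTGCAT (the octamer bound by Oct1) and AAACACAC (an element described in H1 promoters), on either strand. The first sequence is the whole stretch between the divergent starts of H2ac8 and H2bc8, chr13:23571221-23571399 (plus strand), with a CCAAT on each strand, an octamer and a TATAAA.
H2ac8-H2bc8: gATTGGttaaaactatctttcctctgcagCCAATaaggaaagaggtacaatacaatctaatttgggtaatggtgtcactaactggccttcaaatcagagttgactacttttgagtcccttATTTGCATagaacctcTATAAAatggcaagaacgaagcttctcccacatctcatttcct
The H1f3 promoter, chr13:23554882-23555031 (plus strand), has TATAAA 26 bases before the start and CCAAT at 51 bases before it.
H1f3: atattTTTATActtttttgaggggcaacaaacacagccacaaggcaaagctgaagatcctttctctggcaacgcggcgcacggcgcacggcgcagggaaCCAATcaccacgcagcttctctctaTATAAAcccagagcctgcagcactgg
The H3c6 promoter, chr13:23562386-23562535 (minus strand), carries 3 copies of CCAAT.
H3c6: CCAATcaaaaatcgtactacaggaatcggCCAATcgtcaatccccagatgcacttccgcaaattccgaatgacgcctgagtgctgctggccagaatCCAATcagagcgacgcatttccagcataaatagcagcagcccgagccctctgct
The H4c9 promoter, chr13:22041363-22041512 (minus strand), has no CCAAT and a TATAAA 137 bases before the start.
H4c9: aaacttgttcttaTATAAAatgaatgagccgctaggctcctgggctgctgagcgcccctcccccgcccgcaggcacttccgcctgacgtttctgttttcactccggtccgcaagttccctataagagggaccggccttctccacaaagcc
The H2ac1 promoter, chr13:23934187-23934436 (plus strand), is shared with the divergent H2bc1 and holds 4 CCAAT copies, 2 TATAAA, an octamer and AAACACAC.
H2ac1-H2bc1: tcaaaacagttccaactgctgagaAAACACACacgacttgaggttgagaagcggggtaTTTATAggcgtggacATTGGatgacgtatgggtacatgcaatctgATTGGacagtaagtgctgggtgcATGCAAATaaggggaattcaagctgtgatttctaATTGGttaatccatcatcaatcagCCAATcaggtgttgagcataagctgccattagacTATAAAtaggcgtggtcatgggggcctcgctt
The last, H2bc23 at chr13:21810200-21810349 (minus strand), is identical over these 150 bases to the promoter of H4bc24 at chr13:21833593-21833742 (plus strand).
H2bc23: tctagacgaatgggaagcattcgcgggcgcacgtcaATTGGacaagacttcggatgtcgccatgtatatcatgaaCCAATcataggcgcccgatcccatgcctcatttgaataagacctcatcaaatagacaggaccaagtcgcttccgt

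These letters were searched on both strands of 300 bases, 250 before and 50 after each start, and the same search was made in all 32851 promoters of the table. CCAAT was present in 52 of the 61 histone promoters (85.2%, against 37.4% of all promoters). It was in every promoter of the H1, H2A, H2B and H3 families and in 3 of 12 H4 promoters. TATAAA was present in 35 (57.4% against 13.6%), and in 12 it lay on the gene's own strand 20 to 40 bases before the start (19.7% against 1.99%). The octamer was in 13 promoters (21.3% against 1.74%), 7 of H2A and 6 of H2B genes, which often share a divergent promoter. The letters TTTCCCGC, TTTGGCGC or TTTCGCGC, which E2F factors are known to bind, were in 10 (16.4% against 1.84%), and AAACACAC was in 2 (3.28% against 1.81%) and in none of the 5 H1 promoters. A match describes letters and not bound factors.

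Accessibility was given as RPM, the reads of a window scaled to the library's total and so a share of its reads. Total depth ran from 1.3e+06 to 5.55e+06 reads in the EdU-bound libraries and from 2.35e+06 to 1.44e+07 reads in the unbound ones. The 61 histone windows together held 101 to 327 reads in a nascent EdU-bound library, a median of 2 to 4 reads per window, and 1692 to 2068 reads in a DMSO library at 2 h. A single nascent value is therefore only a few reads, and the results below rest on many windows and on all libraries of a group. As a check of the cell type, the 8 ES markers lay between 6.15 ± 1.01 (Klf4) and 14.3 ± 0.534 RPM (Zfp42) in unbound nascent DMSO libraries (SD, n = 3). The 5 primitive endoderm markers ran from 0.286 ± 0.248 (Gata4) to 5.43 ± 1.25 RPM (Gata6), with every mean below the ES marker means. The 6 fibroblast markers ran from 0.331 ± 0.381 (Col1a1) to 7.58 ± 0.626 RPM (Thy1), and Thy1 lay above 3 of the ES markers, Klf4, Tdgf1 and Dppa5a.

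Histone gene windows went from a level near that of an ordinary TSS in nascent chromatin to a high one at 2 h. The median over the 61 windows was 1.15, 1.01 and 1.06 RPM in the 3 nascent DMSO libraries and 9.20, 9.35 and 9.40 RPM in the 3 libraries at 2 h. The nascent and 2 h libraries did not overlap. The median over all TSS windows was 1.07 RPM in nascent and 1.14 RPM in 2 h DMSO libraries. The histone windows took 0.00865% to 0.00923% of all reads of a nascent DMSO library and 0.0572% to 0.0609% at 2 h. Cells were measured in bulk, so more labelled copies with an open promoter and more cuts per open promoter cannot be told apart, and a share of reads cannot show whether signal was lost elsewhere.

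**Figure D1:**
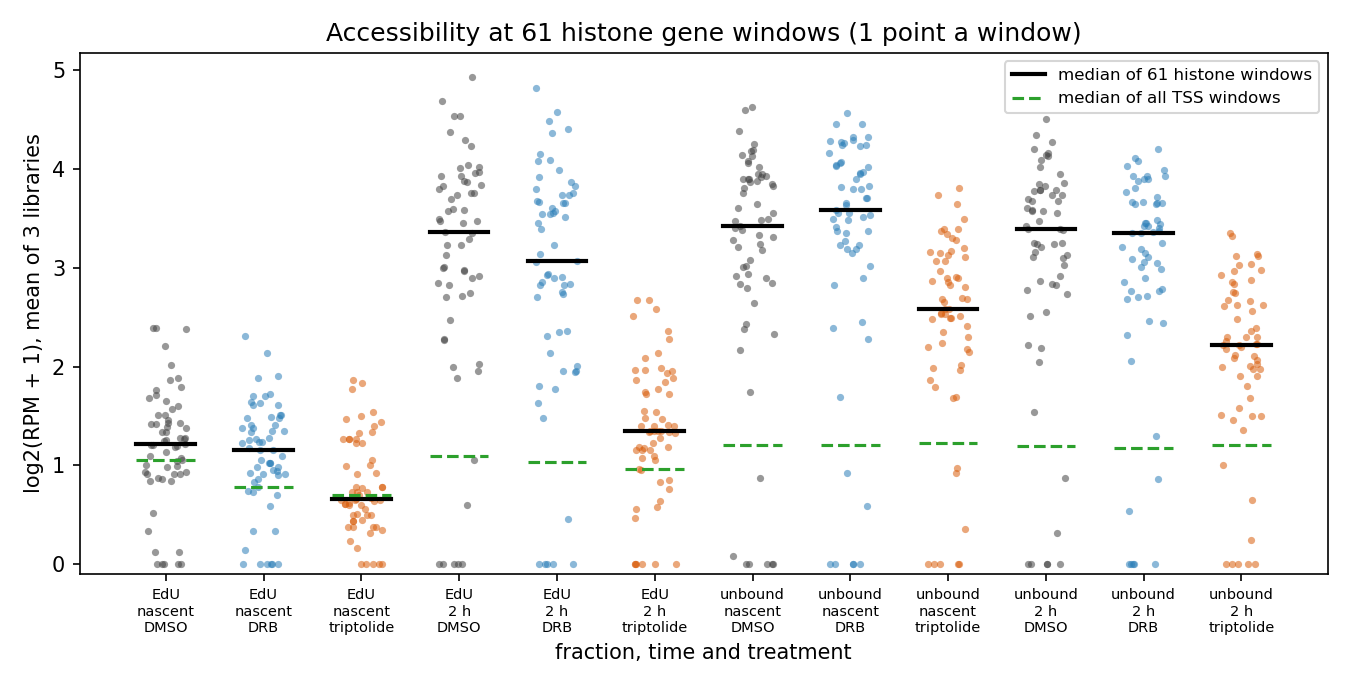
Mean log2(RPM + 1) of 3 libraries at each of the 61 histone gene windows (points), for EdU-bound and unbound libraries by time and treatment. Black bars are the median of the histone windows and green dashes that of all TSS windows. EdU-bound DMSO windows move from the level of all TSSs in nascent chromatin (median 1.07 RPM) to 9.32 RPM at 2 h, close to the unbound level, and 2 h triptolide windows stay low.

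Of the 61 windows, 56 had reads in at least 3 EdU-bound libraries and were tested with limma on log2(RPM + 1) over all 28630 TSS windows with enough reads. Differences below are on that scale, which understates the change of low windows, and a call is a Benjamini-Hochberg adjusted p under 0.05 over all of these windows. Between nascent and 2 h DMSO chromatin, 53 of the 56 windows rose, against 30.1% of all TSS windows. The median difference was 2.12 in the histone windows and 0.31 in all windows, and single histone windows ran from 0.48 to 3.02. In 55 of the 56 windows every 2 h library was above every nascent library, a pattern seen in 36.6% of all windows. With each nascent or 2 h DMSO library left out in turn, 50 of the 53 windows passed every time.

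The 5 linker histone windows all rose, by a median of 2.46. H1f3 had 0.577, 1.51 and 1.85 RPM in the nascent DMSO libraries and 12.3, 10.1 and 21.8 RPM at 2 h. The groups were far apart, although the third 2 h library was well above the other two. The difference was 2.74 (SE 0.33, limma adjusted p = 7.6e-12). H1f5 rose by 2.67 and H1f2 by 2.46, and H1f4, the smallest, by 1.35 (SE 0.38, limma adjusted p = 0.0029).

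Of the H2A windows, 15 of 16 rose, with a median of 2.14; here and below, a window shared by an H2A and an H2B gene counts under both. H2ac8 had 0.577, 2.02 and 1.59 RPM in nascent chromatin and 17.5, 20.1 and 15.8 RPM at 2 h, a difference of 3.02 (SE 0.33, limma adjusted p = 3.2e-13). All 3 libraries at 2 h stood high and close together. The window shared by H2ac15 and H2bc15 rose by 2.87 and that of H2ac6 and H2bc4 by 2.82. H2aw, on chromosome 11, rose by 1.58, from 1.43 ± 0.602 to 6.17 ± 0.896 RPM. H2ac19 on chromosome 3, whose promoter shares sequence with that of H2ac18, did not pass. Its mean was 0.425 ± 0.523 RPM in nascent and, at 2 h, 1.07 ± 0.462 RPM (SD, n = 3). The difference was 0.58 (SE 0.37, limma adjusted p = 0.25).

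Of the H2B windows, 15 of 16 rose, and their median of 2.53 was the highest of the 5 families. H2bc14 had 1.15, 0.505 and 0.794 RPM in the nascent libraries and 14.1, 12.2 and 11.1 RPM at 2 h. Each 2 h library was many times above each nascent one, and the difference was 2.90 (SE 0.35, limma adjusted p = 1.9e-11). H2bc8, whose window overlaps that of H2ac8, rose by 2.87. H2bc12 reached the highest level of the histone windows at 2 h, 29.5 ± 3.17 RPM from 4.24 ± 1.44 RPM, followed by H2bc18 on chromosome 3 with 24.9 ± 3.34 RPM (SD, n = 3). Their libraries ran from 27.3 to 33.1 and from 21 to 27 RPM, and this difference was not tested. H2bu2 on chromosome 11 rose by 2.36, from 1.19 ± 0.624 to 10.1 ± 2.60 RPM.

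Of the H3 windows, 10 of 11 rose, with the lowest family median, 1.83. H3c6 had 1.15, 0.505 and 1.06 RPM at the nascent time and 19.0, 12.9 and 10.8 RPM at 2 h, a difference of 2.98 (SE 0.33, limma adjusted p = 4.0e-13). All 2 h values were above 10, with the first library the highest. H3c7 rose by 2.21 and H3c1 by 2.13. H3c13 on chromosome 3 rose by 0.93 (limma adjusted p = 0.04), from 1.07 ± 0.0731 to 3 ± 0.855 RPM. H3c15, whose promoter shares 74.1% of its 50-base stretches with that of H3c14, had 0.613, 0.36 and 0.553 RPM at 2 h and did not pass, with a difference of 0.48 (SE 0.24, limma adjusted p = 0.12).

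All 12 H4 windows rose, with a median of 2.06. H4c4 had 1.15, 2.02 and 1.06 RPM in nascent chromatin, then 12, 13.7 and 15.2 RPM at 2 h, a difference of 2.62 (SE 0.32, limma adjusted p = 3.1e-11). H4c9 went from 2.31, 0.505 and 1.06 RPM to 10.7, 10.8 and 11.6 RPM. For both genes the 2 h libraries lay within a narrow range, well above the nascent ones. H4c12 rose least of the H4 windows, by 1.56, and H4f16, the single gene on chromosome 6, rose by 1.79, from 2.28 ± 1.03 to 9.97 ± 0.402 RPM. In order of cluster, the median difference was 2.46 in the first chromosome 13 cluster (16 of 16 rose), 2.04 in the second (28 of 29), 1.67 on chromosome 3 (6 of 8) and 1.97 on chromosome 11 (2 of 2). No test was made between families or clusters.

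H2ac1 and H2bc1 code for the testis forms of H2A and H2B and share the divergent promoter printed above. H2bc1 had 0.577, 1.01 and 1.06 RPM at the nascent time and 4.90, 1.80 and 1.38 RPM at 2 h. One of the 2 h libraries, replicate 1, was far above the others, and the difference of 0.86 (SE 0.38, limma adjusted p = 0.074) did not pass. H2ac1 went from 0.577, 1.01 and 1.06 RPM to 5.82, 1.44 and 1.94 RPM and passed narrowly, at 0.97 (SE 0.39, limma adjusted p = 0.042). Its call was lost with other settings, with limma-voom on the reads (adjusted p = 0.08) and with a pseudocount of 0.25 (adjusted p = 0.14). The windows overlap, so they share reads. In unbound nascent DMSO chromatin they had 4.03 ± 0.918 (H2ac1) and 3.48 ± 1.16 RPM (H2bc1), against a median of 9.82 ± 0.427 RPM over the 61 windows (SD, n = 3).

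Another 5 windows could not be tested: H2bc23, H2ac23, H4c17, the pair H2ac24 and H4bc24, and H3c14 had 0 or almost no reads in the EdU-bound libraries. All share promoter sequence with another histone gene. Of the 50-base stretches of each promoter, 100% in H2bc23 and H4bc24, 86.9% in H2ac23, 73.3% in H2ac24, 94% in H4c17 and 74.1% in H3c14 also occurred in a promoter elsewhere in the table. No source used here says how the authors treated reads that fit several places, and unplaced reads and closed chromatin cannot be told apart there. Of the 61 promoters, 49 shared no such stretch. Coding sequence, which the 1 kb windows also cover, was not compared, so reads that fit several places are not excluded there. H4c18 (94% shared with H4c17) and H2ac18 (67.7% shared with H2ac19) were tested, but their names are uncertain in the same way. The same holds for H2ac19 and H3c15, the tested chromosome 3 windows that did not pass in DMSO. Their 5 kb spike-in regions, which take in sequence outside the windows, rose by 3.23 (H2ac19, SE 0.52, limma adjusted p = 2.4e-07) and 3.53 (H3c15, SE 0.52, limma adjusted p = 8.2e-09). Their part in the chromosome 3 median was not tested.

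**Figure D2:**
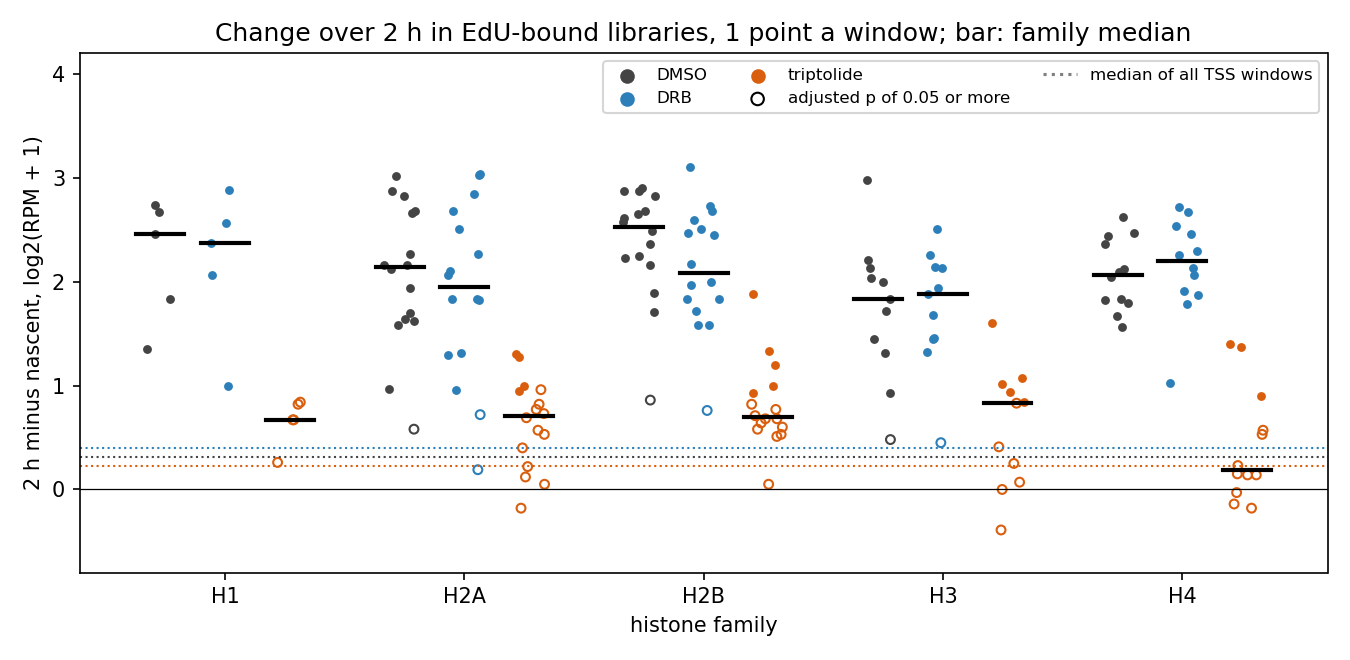
Change between nascent and 2 h EdU-bound chromatin in log2(RPM + 1) for every tested histone window (points) by family, in DMSO, DRB and triptolide. Filled points passed the test, open points did not, black bars are family medians and dotted lines the medians of all TSS windows. DMSO and DRB medians lie between 1.83 and 2.53, and triptolide medians between 0.19 and 0.83.

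The deposited peak lists add times between the nascent and 2 h libraries. A histone gene counted as near a peak where a peak lay within 1000 bp of its start. In nascent chromatin 24 of the 66 genes were near a peak (36.4%), close to the share of all TSSs (36.1%). At 30 min 55 were (83.3%, against 42.8% of all TSSs). At 1 h 61 were (92.4% against 45.9%), and the count was the same at 2 h and at steady state, where all TSSs reached 50.8% and 56.9%. With a reach of 500 bp the nascent, 30 min, 1 h, 2 h and steady-state counts were 21, 47, 58, 59 and 60. With the start itself inside a peak the 1 h, 2 h and steady-state counts were 52, 56 and 55. The 30 min count was then 42 (63.6%, against 33.7% of all TSSs), and the nascent count was 16 (24.2%, against 28.4% of all TSSs). At 1000 bp, the 24 genes with a nascent peak were 7 of 13 H4, 5 of 12 H3, 2 of 5 H1, 6 of 18 H2B and 4 of 18 H2A genes. They included H4c9, H3c6, H2bc12, H1f1 and H1f2. At 30 min 31 more were first near a peak, among them H2ac8, H2bc8, H1f3, H4c4 and H4c18. Another 6 were first near one at 1 h: H2ac18, H2ac19, H3c10, H2bc14, H2ac1 and H2bc1. The remaining 5 genes, H2bc23, H2ac23, H4c17, H2ac24 and H4bc24, were near no peak of any list. The lists give positions without heights and combine replicates, so these shares have no error, and lists of different depth can differ in the peaks they hold.

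A peak of the S5P list lay within 1000 bp of 56 of the 66 genes (84.8%, against 18.5% of all TSSs): all 5 H1, all 12 H3, 12 of 13 H4, 14 of 18 H2B and 13 of 18 H2A genes. In these dense clusters such a peak can belong to a neighbouring gene. With a reach of 500 bp the count was 54, and with the start inside a peak it was 51 (77.3%, against 11.5% of all TSSs). The list comes from unlabelled total chromatin and does not show when polymerase returned after replication. A set of 30 genes was near a peak in every list but the nascent one, and 24 genes were near a peak in all 6. Of the genes with ATAC peaks 5 lacked S5P, and 4 of these were first near a peak at 1 h. Over windows, the DMSO difference had a median of 2.13 in the 51 tested windows with an S5P peak (49 rose) and 1.62 in the 5 without (4 rose).

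**Figure D3:**
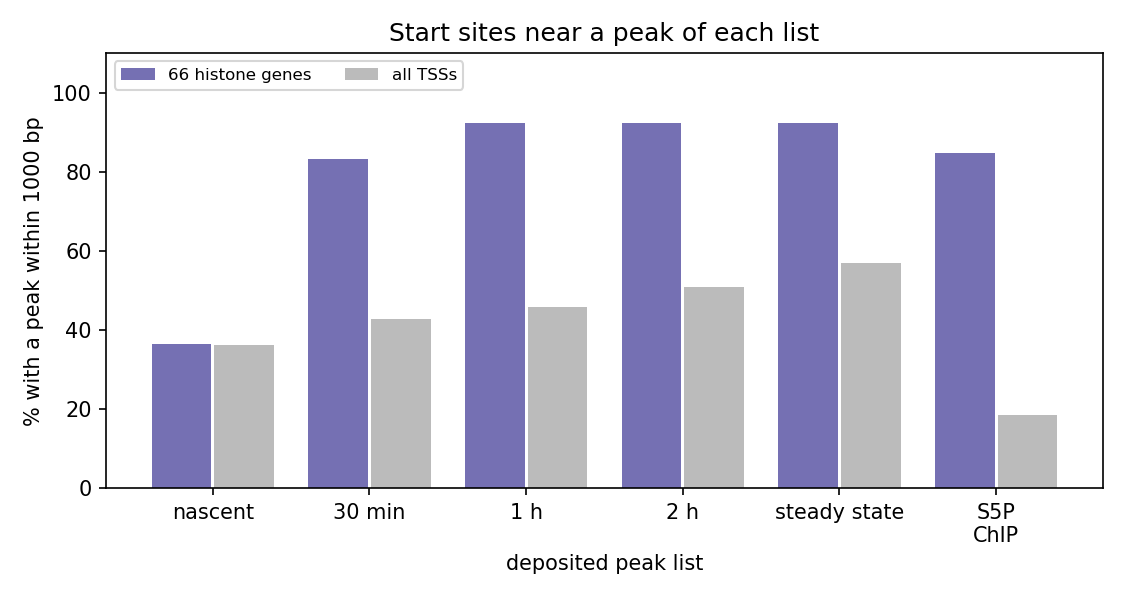
Percent of the 66 histone genes and of all TSSs with a peak within 1000 bp in each of the 6 deposited lists. The histone share goes from 36.4% in nascent chromatin to 83.3% at 30 min and 92.4% from 1 h on, while all TSSs go from 36.1% to 42.8% and 45.9%.

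The unbound fraction of the same cells gave the level of chromatin that had not taken up EdU. In the unbound DMSO libraries the median over the 61 windows was 9.82 ± 0.427 RPM at the nascent time and 9.42 ± 0.424 RPM at 2 h (SD, n = 3). With limma none of the 56 windows changed between these times in either direction (0% of all windows in each direction), 1 had an unadjusted p under 0.05, and limma-voom also called none. In nascent DMSO chromatin 54 of the 56 windows were lower in the EdU-bound than in the unbound libraries, against 41.9% of all windows, by a median of -2.15 (all windows -0.38). H1f2 had the lowest difference, -3.04, and H1f5 was next at -2.98. H2ac8 had 12.1, 17.0 and 13.8 RPM in the unbound and 0.577, 2.02 and 1.59 RPM in the EdU-bound nascent libraries, which did not overlap. At 2 h none of the 56 differed between the fractions with limma or with limma-voom (0% of all windows in either direction), 4 had an unadjusted p under 0.05, and the median difference was 0.03. The change over 2 h was larger in the EdU-bound than in the unbound libraries in 53 of 56 windows (27.6% of all windows), by a median of 2.15.

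Triptolide left the histone windows low in 2 h chromatin. Their median RPM was 2.02, 1.24 and 1.33 in the 3 triptolide libraries at 2 h, against 9.20, 9.35 and 9.40 in DMSO and 6.12, 7.46 and 8.99 in DRB. The triptolide libraries stood apart from all others at that time. Compared with DMSO at 2 h, 52 of 56 windows fell (27.2% of all TSS windows), by a median of -1.94 against -0.27 in all windows. In 53 of 56 every triptolide library was below every DMSO library, which held for 36.2% of all windows. The count was 5 of 5 for H1 (median -2.25), 14 of 16 for H2A (-2.00), 15 of 16 for H2B (-2.36), 10 of 11 for H3 (-1.45) and 12 of 12 for H4 (-1.87). The shared window of H2ac15 and H2bc15 had 18.4, 18.7 and 18.8 RPM in DMSO and 1.73, 1.24 and 0.798 RPM in triptolide, a difference of -3.14 (SE 0.33, limma adjusted p = 1.4e-14). H4c4 had 0.864, 0.621 and 1.33 RPM in triptolide, a difference of -2.92, and H2bc18 had 2.88, 3.10 and 2.13 RPM, a difference of -2.81. Off chromosome 13, H4f16 fell by 2.08, H2bu2 by 1.70 and H2aw by 1.54.

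The 4 windows that did not pass were H2bc1 (-0.44), H2ac1 (-0.49), H2ac19 (-0.57) and H3c13 (-0.62). H2bc1 had 4.90, 1.80 and 1.38 RPM in DMSO and 0.576, 2.48 and 1.86 RPM in triptolide at 2 h, so its groups overlapped.

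**Figure D4:**
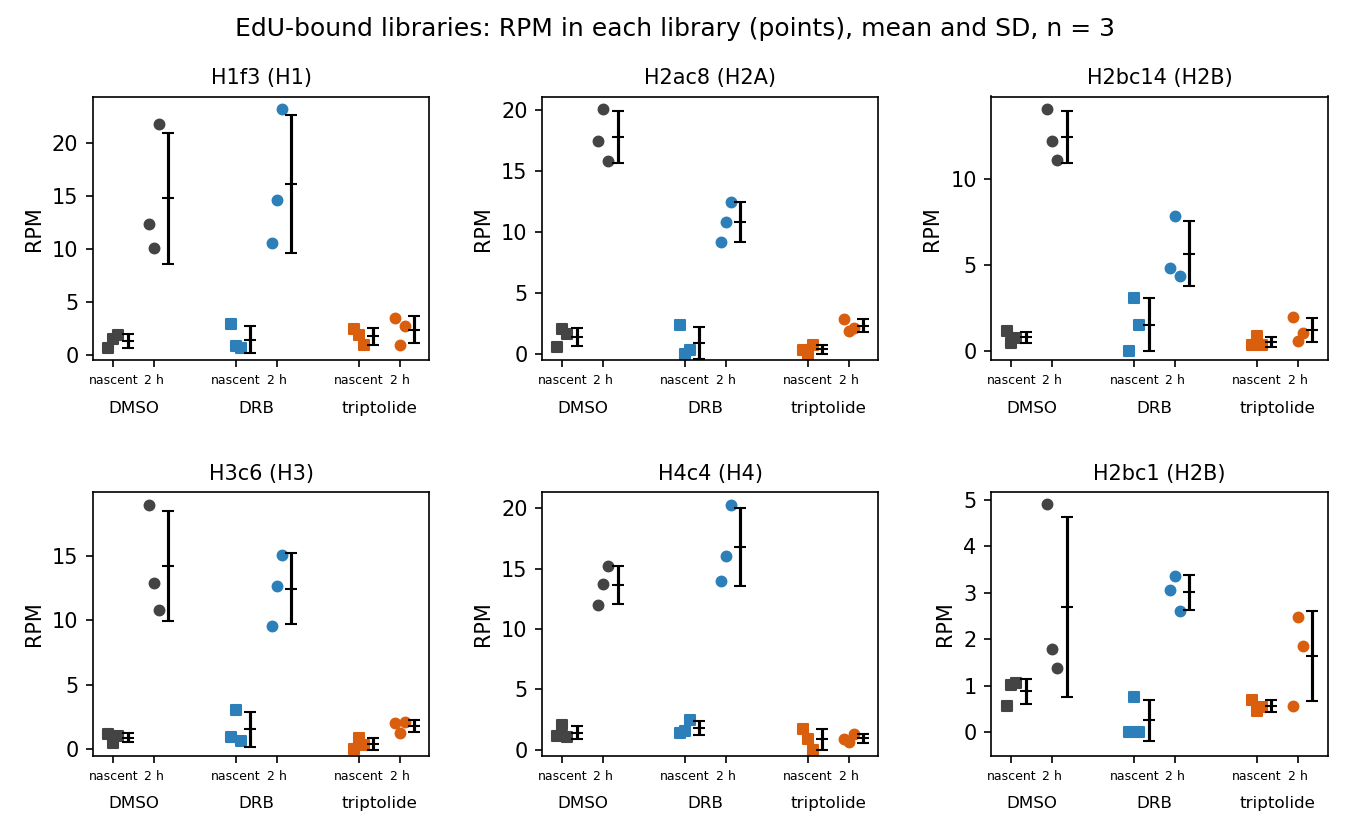
RPM in each EdU-bound library (points) with mean and SD (n = 3) for the leading window of each family and for H2bc1, in nascent (squares) and 2 h (circles) chromatin under DMSO, DRB and triptolide; each panel has its own scale. The first 5 windows are high at 2 h in DMSO and DRB and low in triptolide, and the 2 h DMSO and triptolide values of H2bc1 overlap.

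In triptolide itself, 16 of the 56 windows rose between nascent and 2 h chromatin (13.6% of all windows), with a median of 0.67 against 0.23 in all windows. In 27 of 56 every 2 h library was above every nascent one (26% of all windows). By family 4 of 16 H2A, 5 of 16 H2B, 5 of 11 H3 and 3 of 12 H4 windows rose. The 5 H1 windows ran from 0.26 to 0.84 and none passed with limma, with 3 at an unadjusted p under 0.05. The 8 tested windows on chromosome 3 had a median of 0.09, and none passed with limma (1 at an unadjusted p under 0.05). H2bc3 went from 1.04, 0 and 1.08 RPM to 4.03, 5.90 and 5.05 RPM with triptolide, the largest difference at 1.88 (SE 0.31, limma adjusted p = 2.5e-06), and H3c2 followed at 1.60. The count depends on the libraries and on the scaling: it was 9 without 2 h triptolide replicate 1, 10 without nascent triptolide replicate 3, 8 with each library centred on its median and 29 with scaling to windows away from peaks.

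In nascent chromatin 10 of 56 windows were lower in triptolide than in DMSO (10.7% of all windows), with a median of -0.45 against -0.21 in all windows. H2bc7 had 2.88, 2.02 and 4.23 RPM in DMSO and 1.39, 0 and 0.18 RPM in triptolide, a difference of -1.48 (SE 0.32, limma adjusted p = 6.2e-04), and H2ac7 and H3c2 had -1.28 each. The count was 2 with centring on the median, 5 without nascent triptolide replicate 2 and 6 without nascent DMSO replicate 3. Because the nascent levels differed, the change over 2 h was compared directly.

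That change was smaller in triptolide than in DMSO in 18 of 56 windows, against 0.398% of all TSS windows, and the median difference of the changes was -1.49 (all windows -0.13). The largest was at H4c9, which in DMSO went from 2.31, 0.505 and 1.06 RPM to 10.7, 10.8 and 11.6 RPM, but had 1.04, 1.36 and 1.80 RPM and later 2.02, 0.621 and 1.06 RPM in triptolide. The difference of its changes was -2.61 (SE 0.45, limma adjusted p = 1.1e-04). H1f3 followed with -2.48 (SE 0.46, limma adjusted p = 4.1e-04), then H4c18 and H4c4, each with -2.47. At the other end H3c2 had 0.15 and H2ac1 -0.01. By family 2 H1, 5 H2A, 9 H2B, 2 H3 and 4 H4 windows passed. The number of calls rests on how low counts are handled: 1 window passed with a pseudocount of 0.25, 1 with limma-voom on the recovered reads, and 38 with scaling to windows away from peaks. It was also 9 without 2 h DMSO replicate 1, 8 without 2 h DMSO replicate 2, 12 without 2 h DMSO replicate 3 and 12 without nascent triptolide replicate 1. The median stayed between -1.46 and -1.81 over the centring, scaling, pseudocount and limma-voom settings.

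Under DRB 52 of the 56 histone windows rose between nascent and 2 h chromatin (33.8% of all windows), with a median of 2.06 against 0.40 in all windows. Every 2 h library was above every nascent one in 55 of 56 (35.6% of all windows). By family 5 of 5 H1 (median 2.37), 14 of 16 H2A (1.95), 15 of 16 H2B (2.08), 10 of 11 H3 (1.88) and 12 of 12 H4 windows (2.2) rose. H2bc12 rose by 3.10 and H2ac12 by 3.04. H2ac21 (0.19), H3c15 (0.45), H2ac18 (0.72) and H2bc6 (0.76) did not pass, and 3 of these 4 lie on chromosome 3. Across the 56 windows the DRB and the DMSO differences, which share no library, had a Pearson r of 0.62 and a Spearman rho of 0.62, given as a description since neighbouring windows share reads.

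At 2 h limma called 0 of 56 windows between DRB and DMSO (0.203% of all windows were higher and 0.618% lower), and 9 had an unadjusted p under 0.05. Limma-voom called 3, scaling to windows away from peaks gave 4, and 1 passed with 2 kb windows and 1 without 2 h DRB replicate 3. The median was -0.10, from -1.22 (H2ac20 with H2bc21, SE 0.36, limma adjusted p = 0.068) to 0.60 (H3c3). H2ac15 with H2bc15 had 4.81, 7.09 and 13.3 RPM in DRB and 18.4, 18.7 and 18.8 RPM in DMSO, which did not overlap, at -1.16 (SE 0.33, limma adjusted p = 0.06). In nascent chromatin only H2ac7 was called lower in DRB (3.1% of all windows), at -1.20 (SE 0.34, limma adjusted p = 0.026). No histone window was called there with centring, without the trend, with limma-voom or without nascent DMSO replicate 3, and 3 were without nascent DRB replicate 3. The change over 2 h differed between DRB and DMSO in 0 windows with limma and with limma-voom (0.014% of all windows higher and 0.00699% lower), with 5 at an unadjusted p under 0.05, a median of -0.01 and a range from -1.51 (H2ac21) to 1.09 (H2ac7). A p that misses the threshold does not show that DRB and DMSO acted alike, and the SE of these differences of changes, 0.41 at H2ac12 and 0.51 at H2ac21, bounds what could be seen.

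The pair of inhibitors differed at 2 h. Triptolide was lower than DRB in 46 of 56 windows (13.7% of all windows), by a median of -1.72, and in 54 of 56 every triptolide library was below every DRB library (27.3% of all windows). H4c4 had 14.0, 16.0 and 20.3 RPM in DRB and 0.864, 0.621 and 1.33 RPM in triptolide, a difference of -3.20 (SE 0.32, limma adjusted p = 7.9e-15), and H4c9 had -2.74. In nascent chromatin limma called 0 windows between the inhibitors (0.0908% of all windows higher and 0.506% lower) and limma-voom 0, with 17 at an unadjusted p under 0.05 and a median of -0.34. These are comparisons of treatments at single, unstated doses.

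The histone windows were lower with triptolide in the unbound fraction as well. At the nascent time, that is after 2 h of drug and the pulse, the median over windows was 5.76, 5.74 and 3.97 RPM in triptolide and 10.2, 9.36 and 9.91 RPM in DMSO. The third triptolide library was the lowest. Of 56 windows, 41 fell (1.45% of all TSS windows), by a median of -0.79, but 23 did without triptolide replicate 3. H1f5 fell by 1.43 (SE 0.17, limma adjusted p = 6.7e-08) and H2ac8 and H2bc8 by 1.29 each. At 2 h 51 of 56 fell (11.7% of all windows), by a median of -1.05, and 50 did so with every library left out in turn. H4c4 had 10.8, 13.1 and 13 RPM in DMSO and 3.11, 3.28 and 2.62 RPM in triptolide, a difference of -1.73 (SE 0.14, limma adjusted p = 4.6e-13), followed by H4f16 (-1.62) and H2bc18 (-1.61). H2ac18, H2ac19, H2ac1, H2bc1 and H3c15 did not pass.

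Few windows differed between DRB and DMSO in the unbound fraction. At the nascent time 2 windows were higher (0.264% of all windows): H4c11, with 10.7, 10.7 and 9.62 RPM in DRB and 6.73, 4.25 and 7.45 RPM in DMSO (0.70, SE 0.17, limma adjusted p = 0.035), and H4c2 (0.69). Both calls were lost with scaling to windows away from peaks, without DMSO replicate 2 or without DRB replicate 3, and 1 was without DRB replicate 1 or 2. At 2 h H2bc6 was lower (0.728% of all windows), with 4.05, 3.87 and 4.02 RPM in DRB and 8.81, 7.09 and 7.29 RPM in DMSO (-0.80, SE 0.16, limma adjusted p = 0.0026). The RefSeq table holds a pair of H2bc6 promoters, and this window lies at the annotated gene start, chr13:23621124. Which of the starts is used in these cells was not tested.

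The spike-in libraries measured the 5 kb around each start, in values whose scaling by the S2 reads no source used here states. Of 58 regions with reads, 57 rose between nascent and 2 h chromatin (30.1% of all regions), by a median of 3.54 against 0.79, on the log2(value + 1) scale. The 5 kb regions of the 61 windows form 28 separate stretches. Many regions therefore share reads, and these counts are not of independent regions. By family 5 of 5 H1 (median 3.70), 17 of 17 H2A (3.38), 16 of 17 H2B (3.73), 12 of 12 H3 (3.57) and 12 of 12 H4 regions (3.54) rose. The region of H2ac24 and H4bc24 had the largest difference, 5.17 (SE 0.64, limma adjusted p = 1.4e-12), from 1.09 and 2.28 to 93.2 and 93.8. Its nascent values were the lowest above 0 of any histone region and near the floor, so the size of this difference is uncertain. Its 1 kb window held no read in any of the 36 inhibitor libraries, and the 5 kb region also takes in sequence outside that window. H2ac8 went from 14.2 and 6.83 to 337 and 329 (4.94), and H2bc8, in an overlapping region, rose by 4.90. Among H3 regions H3c3 (4.79) and H3c4 (4.31) rose most and H3c8 (2.84) least. H1f3 went from 22.9 and 27.3 to 595 and 562 (4.48), followed by H1f5 (4.04), and H1f4 was the lowest H1 region at 2.94. Of the H4 regions H4c3 (4.07) and H4c18 (3.99) led. The 2 h libraries of H2ac24 with H4bc24, H2ac8 and H1f3 were close to each other and far above the nascent ones. H2bc1 was the smallest and did not pass, with 17.5 and 15.9 in nascent and 52.2 and 38.3 in 2 h chromatin (1.37, SE 0.57, limma adjusted p = 0.05), and H2ac1, whose region overlaps it, rose by 1.52. H2aw (1.94) and H4f16 (2.26) were the next lowest of those named. With 2 libraries a group the calls are fragile: leaving out either 2 h library left 1 region called, that of H2ac24 and H4bc24, the lone library being assumed to vary like the others. Across the 56 windows tested in both, the spike-in and the DMSO differences had a Pearson r of 0.44 and a Spearman rho of 0.47, again as a description.

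The signal at 2 h was concentrated at the start sites. In nascent DMSO chromatin the mean over the 61 windows was 1.46 RPM and that of windows 2 to 5 kb away was 0.573 RPM, a ratio of 2.58 ± 0.282 (SD, n = 3). At 2 h these were 9.76 and 1.72 RPM, a ratio of 5.74 ± 0.619. All TSS windows had ratios of 2.22 and 4.75. By distance, 2 h DMSO signal fell from 9.76 RPM at the start to 7.77 at 0.5 kb, 4.25 at 1 kb, 1.96 at 1.5 kb and 1.56 at 2 kb. Under DRB the 2 h ratio was 5.49 ± 0.892, and under triptolide it was 2.18 ± 0.0586, with 1.82 RPM at the windows and 0.835 RPM in the flanks. In nascent chromatin the ratio was 1.84 ± 0.248 under DRB and 1.29 ± 0.108 under triptolide, the latter with 0.807 and 0.629 RPM. All TSS windows had ratios of 3.94 (DRB) and 2.12 (triptolide) at 2 h, and of 1.88 and 1.43 in nascent chromatin. In the unbound libraries the ratio of the histone windows was 5.63 (DMSO) and 4.70 (triptolide) at the nascent time. At 2 h it was 5.55 and 4.06. Flank windows that overlapped another histone window (for all TSSs, another TSS window) were left out of all these values. With flank windows further limited to those that no peak overlapped, the flank level in DMSO was 0.397 RPM at the nascent time. It was 0.471 RPM at 2 h, and the ratio went from 3.87 to 20.9. With the same limit the ratio of all TSS windows went from 2.72 to 10.1.

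**Figure D5:**
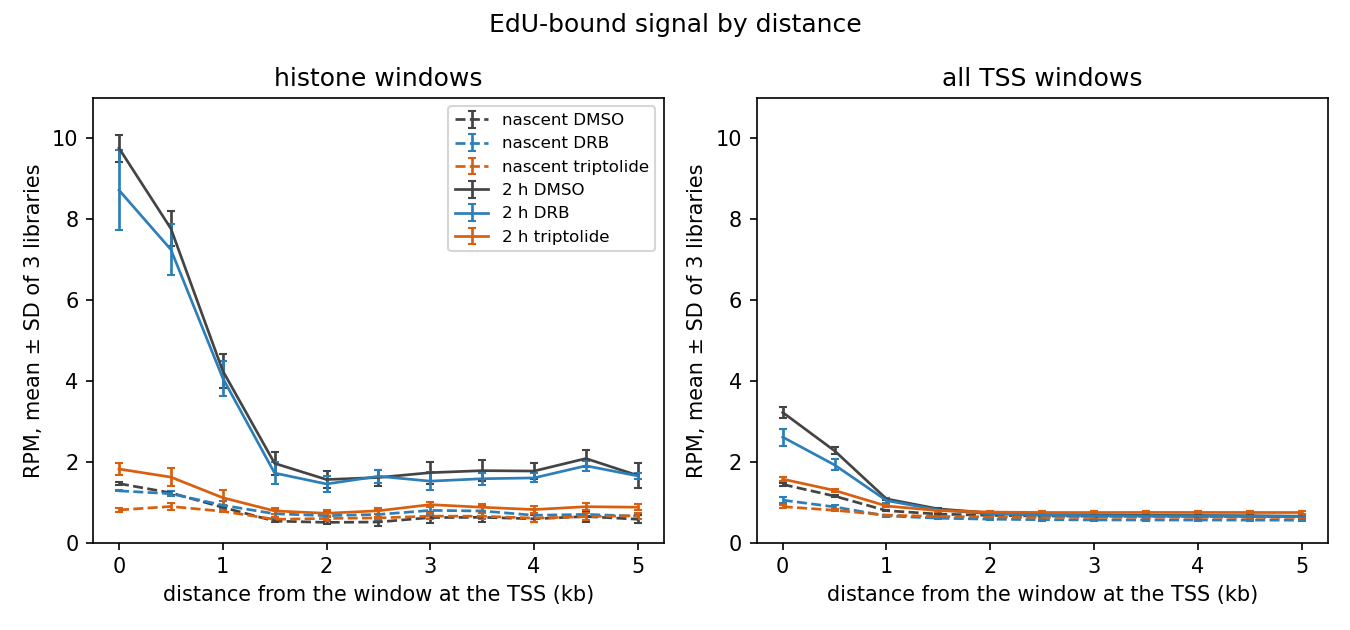
Mean RPM ± SD (n = 3) of EdU-bound libraries by distance in kb from the window at the start site, for histone windows and for all TSS windows. Histone windows in 2 h DMSO chromatin peak at 9.76 RPM and fall to 1.56 RPM at 2 kb, and 2 h triptolide stays near the nascent profile.

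Genes around and behind the histone genes were read from lists of their own. Of 8 tested non-histone or testis-specific neighbours inside the clusters, 2 rose over 2 h in DMSO and 1 fell, with a median of 0.62, where 30.1% of all windows rose and 1.63% fell. With triptolide at 2 h 1 was higher and 0 lower (2.77% and 27.2% of all windows). Zfp184 rose by 1.66 (limma adjusted p = 1.4e-06) and Pom121l2 by 1.24, with 0.10 and 0.29 for triptolide minus DMSO at 2 h, while Prss16, a thymic protease gene, fell by 1.12 and was 1.86 higher with triptolide. Trim17 is not counted here because its window is that of H2aw.

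Of 23 tested genes whose products act on histone transcription or mRNA ends, 13 rose over 2 h in DMSO (median 0.89; 30.1% of all windows rose), and 18 fell with triptolide at 2 h (median -1.13; 27.2% of all windows fell). Hinfp, an activator of H4 genes, rose by 1.75, Npat by 1.71, Casp8ap2 (a histone locus body protein) by 1.47, and Slbp by 1.25. With triptolide at 2 h Npat fell by 2.33, Slbp by 2.04 and Yy1 by 2.01, while Mblac1 (-0.20) and Gon4l (0.04) did not pass. In nascent EdU-bound chromatin 11 of the 23 were lower with triptolide than in DMSO (median -0.94), against 10.7% of all windows. None of the 23 differed in its change over 2 h between triptolide and DMSO with limma (0.398% of all windows had a smaller change), with 3 at an unadjusted p under 0.05. In the unbound fraction limma called none at the nascent time (1.45% of all windows fell), with 5 at an unadjusted p under 0.05, and 7 fell at 2 h (11.7% of all windows).

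Replication-independent histone variants are made outside S phase as well, and most of their genes have introns and give polyadenylated mRNAs. Of 10 tested, 7 rose over 2 h in DMSO (median 1.20; 30.1% of all windows), led by H2aj (2.06), H2az2 (2.04), Cenpa (1.80, the centromeric H3) and H2ax (1.71). Macroh2a1 (-0.29) and H1f0 (0.44) did not pass. With triptolide at 2 h 9 of 10 fell (median -1.54, against 27.2% of all windows). In nascent EdU-bound chromatin 3 of 10 were lower with triptolide (median -0.78, against 10.7% of all windows). In the unbound fraction 1 fell with triptolide at the nascent time (1.45% of all windows) and 5 at 2 h (11.7%). Of the 8 ES markers 7 rose over 2 h in DMSO (median 1.11), of 5 primitive endoderm markers 1 did (median 0.55), and of 6 fibroblast markers 1 did (median 0.44), against 30.1% of all windows. With triptolide at 2 h 6 ES markers, 1 endoderm marker and 0 fibroblast markers fell, against 27.2% of all windows, and their part in the histone result was not tested.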

How the data were processed

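Per the submitters' processing notes, reads were trimmed with Trim Galore 0.4.2 and aligned with Bowtie2 2.2.6.2 to mm10. The sources used here do not give roles, parameters, the peak caller or the treatment of reads that fit several places. The deposited table for the 36 inhibitor libraries gives log2(RPM + 1) in windows of 1000 bp every 500 bp; the authors' RPM scales reads to each library's total. Its values are whole multiples of what 1 read is worth, so read counts were recovered from the deposited RPM (within 0.1 read) for the limma-voom alternative. The spike-in table holds deposited log2(value + 1) in 5 kb regions. The authors' peak lists give positions for replicates together, without scores.

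Each gene was paired with the nearest listed TSS within 1000 bp of its RefSeq start. Windows with signal in 3 libraries or more (2 for spike-in regions) were fitted with limma 3.58.1 (R 4.3.3, trend, all groups of a fraction together) across all TSS windows, with Benjamini-Hochberg adjustment. The cross-fraction fit took all inhibitor libraries of both fractions together, and its comparisons were between DMSO groups. Scripts were tested on simulated data. Python 3.11.15, numpy 2.4.6, pandas 2.3.3 and R's data.table, version 1.17.8, were used. Alternatives were centring, scaling to windows away from peaks, other pseudocounts, no filter, no trend, limma-voom, 2 kb windows, another TSS, a replicate block and leaving out each library.

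Named windows were, by rule, per family the 2 largest and the smallest over 2 h in DMSO and spike-in, the 3 lowest and 2 highest in other comparisons, those not passing in DMSO, the testis genes and members on chromosomes 3, 11 and 6; others were named after their values were seen. The members, lists and tests were chosen with earlier results of these data known. The fits reported have no replicate block; the check of the replicate numbers is given with the alternatives.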

Additional observations from a re-analysis of the deposited data

Results flagged for a closer look

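The change over 2 h in EdU-bound chromatin differed between triptolide and DMSO at 18 histone windows by the limma test of the difference itself. The windows with the largest differences of changes were H4c9 (-2.61), H1f3 (-2.48) and H4c4 (-2.47). They were picked out because a drug group and its control moved differently under the same contrast. With a pseudocount of 0.25 the difference passed at 1 window, and with limma-voom at 1; the part of the low nascent read numbers in this was not tested.

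The change over 2 h in DMSO also differed between EdU-bound and unbound libraries, at 53 histone windows, led by H2ac8 (3.15) and H3c6 (3.11), again by the test of the difference itself.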

How the results depend on the processing

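Counts are of histone windows called by limma. The EdU-bound calls over 2 h in DMSO and DRB, the lower level with triptolide at 2 h against DMSO and DRB, the unbound 2 h triptolide calls and the EdU-bound against unbound calls stayed within 1.5 times of the reported count under every alternative run. Centring each library on its median gave 8 windows for 2 h minus nascent in triptolide, 2 for nascent triptolide minus DMSO and 0 for nascent DRB minus DMSO. Scaling to windows away from peaks gave 29, for nascent DRB 2, for DRB minus DMSO at 2 h 4, for the difference of changes between triptolide and DMSO 38, and for unbound nascent DRB 0. A pseudocount of 0.25 gave 1 for that difference of changes and 3 for triptolide minus DRB in nascent chromatin. Limma-voom gave 1 for that difference, 0 for nascent DRB and 3 for DRB at 2 h. Without the trend, nascent DRB gave 0 and unbound nascent DRB 1, and without the filter unbound nascent DRB gave 1. With 2 kb around the TSS, DRB at 2 h gave 1, triptolide minus DRB nascent 4, unbound nascent DRB 1 and unbound 2 h DRB 3. At 2 kb, H3c15 turned to -1.19 in unbound triptolide minus DMSO nascent and to -1.86 in EdU minus unbound nascent DMSO. The cause of these shifts was not tested.

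Leaving out each library gave 50 to 53 windows over 2 h in DMSO, 50 to 51 in DRB and 9 to 14 in triptolide. It gave 5 to 9 for nascent triptolide minus DMSO, 0 to 3 for nascent DRB, 47 to 50 for triptolide minus DMSO at 2 h and 0 to 1 for DRB at 2 h. The difference of changes gave 8 to 18 for triptolide and 0 for DRB. Triptolide minus DRB gave 0 to 2 in nascent and 42 to 44 in 2 h chromatin. In the unbound fraction it gave 23 to 41 for nascent triptolide, 50 to 51 for 2 h triptolide, 0 to 2 for nascent DRB and 1 for 2 h DRB. EdU-bound against unbound gave 54 in nascent chromatin and 50 to 53 for the change over 2 h. The spike-in gave 1 to 58.

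With a replicate block, triptolide minus DRB at 2 h gave 47, the difference of changes for triptolide 19, unbound nascent triptolide 43 and the spike-in 52. Correlations of the deviations of same-numbered libraries were over 0.1 in 0 of 45 EdU-bound, 12 of 45 unbound and 3 of 18 cross-fraction pairs, so not in every pair; of differently numbered pairs 0 of 90, 1 of 90 and 0 of 36 were. The same-numbered medians were 0.0131, 0.0599 and 0.0304 and the others -0.00565, -0.0299 and -0.0178. The mean correlation was highest with a library's own number for 16 of 18 EdU-bound and 14 of 18 unbound libraries and for 32 of 36 across fractions, a hint of shared origin from the data and not from the design. The block changed no count by more than 1.5 times.

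The window to flank ratio moved most with flanks limited to windows that no peak overlapped. EdU-bound nascent libraries then had 3.87 (DMSO), 2.24 (DRB) and 1.54 (triptolide), and at 2 h 20.9, 15.6 and 3.41. Unbound nascent libraries had 21.0, 16.1 and 12.3, and unbound 2 h libraries 20.9, 18.7 and 8.58. With flanks at 3 to 5 kb the ratio was 2.08 (EdU-bound 2 h triptolide), 4.35 (unbound nascent triptolide), 5.25 (unbound 2 h DMSO) and 3.79 (unbound 2 h triptolide). Of values for named windows 1830 kept their side of the threshold, 69 lost and 40 gained a call. Of the medians over histone windows 283 moved by less than 1 SE and 29 by more. The lists of other genes were not run under the alternatives. Nascent depth, a median of 2 to 4 reads per window, limits single windows.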
